A study of Mus musculus with 8 samples.

Results

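The 10 genes described here encode proteins of the cornified envelope and the enzymes that cross-link it: the transglutaminases Tgm1 and Tgm3, the envelope proteins Lor (loricrin) and Ivl (involucrin), the S100-fused proteins Flg (filaggrin), Flg2, Rptn (repetin) and Crnn (cornulin), and the secreted keratinocyte proteins Krtdap and Sbsn (suprabasin). They were chosen by symbol from the 32285 genes of the deposited matrices. All 10 were found, and their levels were described in mouse tongue epithelial cells of 4 genotypes. A cell counted as epithelial when it held at least 1 UMI (a uniquely tagged transcript molecule) of Epcam, or when Krt5, Krt14, Krt15, Krt13 and Krt6a together made up at least 0.5% of its UMIs, and when it held no UMI of Ptprc, the pan-leukocyte gene.

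Mice of every group carried Krt14-CreERT and LSL-rtTA, so that tamoxifen injected into the tongue switched on the tetracycline activator in Krt14-expressing cells and their progeny and doxycycline chow then drove the transgenes. N mice carried no further transgene, E mice carried tetON_E6-E7 (the human papillomavirus oncogenes), Y mice carried tetON_YAP1S127A (a YAP allele that resists inhibition by phosphorylation), and EY mice carried both. The methods also give all groups an H2B-GFP reporter. Viable cells were sorted 15 days after induction from adult littermates in groups balanced for age and sex, and each group had 2 libraries. The second N library is named for 2 animal numbers and may pool animals. Because recombination was local, the epithelial cells of E, Y and EY libraries can include cells that did not express a transgene.

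After the study's own limits on genes, UMIs and mitochondrial reads per cell, 25199 of 42550 barcodes were kept and 13255 of them were epithelial, from 190 cells in the first EY library to 4118 in the first E library. Their UMIs summed to between 2740290 and 55786031 per library. All 7 basal and all 6 suprabasal epithelial markers had UMIs in every library. Other cell types left transcripts that moved with the libraries: the summed level of 14 immune markers ranged from 105 to 331 CPM (UMIs scaled to a fixed total per library) in the N libraries and was 2823 and 812 CPM in the EY libraries, with Ptprc at 0 through the gate, and 9 gland or duct markers reached 6237 CPM in the second N library and 9256 CPM in the first EY library, against 58.4 to 1165 CPM elsewhere. Between 74 and 609 gate-positive cells per library lay above the upper limits on genes or UMIs and were left out. A further 106 to 382 per library, with at least 200 but fewer than 1000 genes, were also left out. They numbered 339 in the first EY library and 304 in the second N library. Any pair of libraries shared at most 5 epithelial barcodes. In summed cells, fewer cells that express a gene and less RNA per cell cannot be told apart.

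As keratinocytes of a stratified epithelium leave the basal layer, transglutaminases join structural proteins by bonds between glutamine and lysine residues into an insoluble shell beneath the plasma membrane. TGM1 is the membrane-bound enzyme of the upper living layers, and TGM3 is a soluble enzyme prominent in hair follicles and other hard or late cornifying tissue. Loricrin and involucrin are substrates of these enzymes, filaggrin and its relatives bind keratin filaments or are built into the shell, and the tongue surface combines soft areas with hard filiform papillae.

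The genes sit mostly in shared loci, and their promoters share short sequences, which is why they are shown first. In GRCm38, the build of the annotation used, Lor (chr3:92080271-92083142), Ivl (chr3:92570902-92573735), Crnn (chr3:93144787-93149819), Flg2 (chr3:93197278-93221391), Flg (chr3:93273523-93293686) and Rptn (chr3:93393699-93399442) lie in the epidermal differentiation complex. Sbsn (chr7:30751471-30756134) and Krtdap (chr7:30787896-30791097) flank Dmkn, another secreted keratinocyte protein gene (chr7:30763756-30781063). Tgm1 (chr14:55700009-55713926) and Tgm3 (chr2:130012349-130050399) stand elsewhere. Lor, Ivl and Tgm1 are on the minus strand and the others on the plus strand. All 10 are protein-coding, and all 10 gene identifiers matched the annotation.

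All 10 genes also matched the RefSeq promoter table (GRCm38.p6), in which the 250 bases before each annotated start were searched on both strands. TGANTCA is a looser form of the AP-1 motif, whose middle base is C or G, and is its own reverse complement apart from that base. It was present for 8 of 10 genes (Lor, Ivl, Flg, Flg2, Rptn, Crnn, Krtdap and Sbsn), against 6.75% of all 32851 promoters. The middle base was C or G in Lor, Ivl and Krtdap, and A or T in Flg, Flg2, Rptn, Crnn and Sbsn. TATAAA was present for 7 of 10 genes, against 12.4% of promoters. GGAATG, the letters bound by TEAD factors, the DNA-binding partners of YAP, was present for Tgm3 only, against 12.6% of promoters. No match says only that these letters are not in this window. The last 130 bases before the start are given here for the genes on which the comparisons turn and for the neighbours Flg and Flg2, with matches of TGANTCA, of TATAAA and of GGAATG in capitals. No stretch is shown for Tgm1, whose 2 listed promoters held none of the 3 motifs.
Tgm3, chr2:130012210-130012339, plus strand: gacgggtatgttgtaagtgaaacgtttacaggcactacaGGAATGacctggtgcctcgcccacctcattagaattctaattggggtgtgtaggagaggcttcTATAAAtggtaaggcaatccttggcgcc
Lor, chr3:92083143-92083272, minus strand: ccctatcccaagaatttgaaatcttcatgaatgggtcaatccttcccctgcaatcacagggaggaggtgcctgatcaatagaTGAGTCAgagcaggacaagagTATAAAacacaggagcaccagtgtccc
Flg, chr3:93273416-93273545, plus strand: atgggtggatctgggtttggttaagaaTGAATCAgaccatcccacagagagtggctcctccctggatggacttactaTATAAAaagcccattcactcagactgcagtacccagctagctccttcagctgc
Flg2, chr3:93197143-93197272, plus strand: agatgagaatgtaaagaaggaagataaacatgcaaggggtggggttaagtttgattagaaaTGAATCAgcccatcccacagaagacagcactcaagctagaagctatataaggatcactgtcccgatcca
Rptn, chr3:93393569-93393698, plus strand: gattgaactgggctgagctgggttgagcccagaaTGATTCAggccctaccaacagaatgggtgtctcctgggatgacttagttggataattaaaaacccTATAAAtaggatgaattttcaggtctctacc
Krtdap, chr7:30787775-30787904, plus strand: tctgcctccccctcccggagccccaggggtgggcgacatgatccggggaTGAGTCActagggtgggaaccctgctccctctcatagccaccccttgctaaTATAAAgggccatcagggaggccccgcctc
Sbsn, chr7:30751341-30751470, plus strand: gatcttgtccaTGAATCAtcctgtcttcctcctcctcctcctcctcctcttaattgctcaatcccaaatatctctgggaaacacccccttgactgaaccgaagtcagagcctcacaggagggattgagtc
The TGANTCA match began 48 bases before the start in Lor, 81 in Krtdap, 103 in Flg, 69 in Flg2, 96 in Rptn and 119 in Sbsn. These matches describe letters near the start and were not tested for binding.

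The genes fell into a detected and a scarce set. Krtdap, Sbsn, Tgm1, Tgm3 and Lor had 2626 to 114042 UMIs over the 8 libraries, and between 10.0% (Lor) and 56.7% (Sbsn) of the 13255 epithelial cells held at least 1 UMI of them. The other 5 were scarce. Rptn had 339 UMIs in 28 cells, Flg 243 in 74 cells, Crnn 102 in 62 cells, Ivl 38 in 29 cells and Flg2 only 2 UMIs, 1 in each of 2 cells. Ivl and Flg2 did not pass the filter on low counts, so 8 of the 10 genes were among the 13950 tested. Levels are given as CPM after scaling of library totals (TMM) and are set side by side only within a gene.

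**Figure D1:**
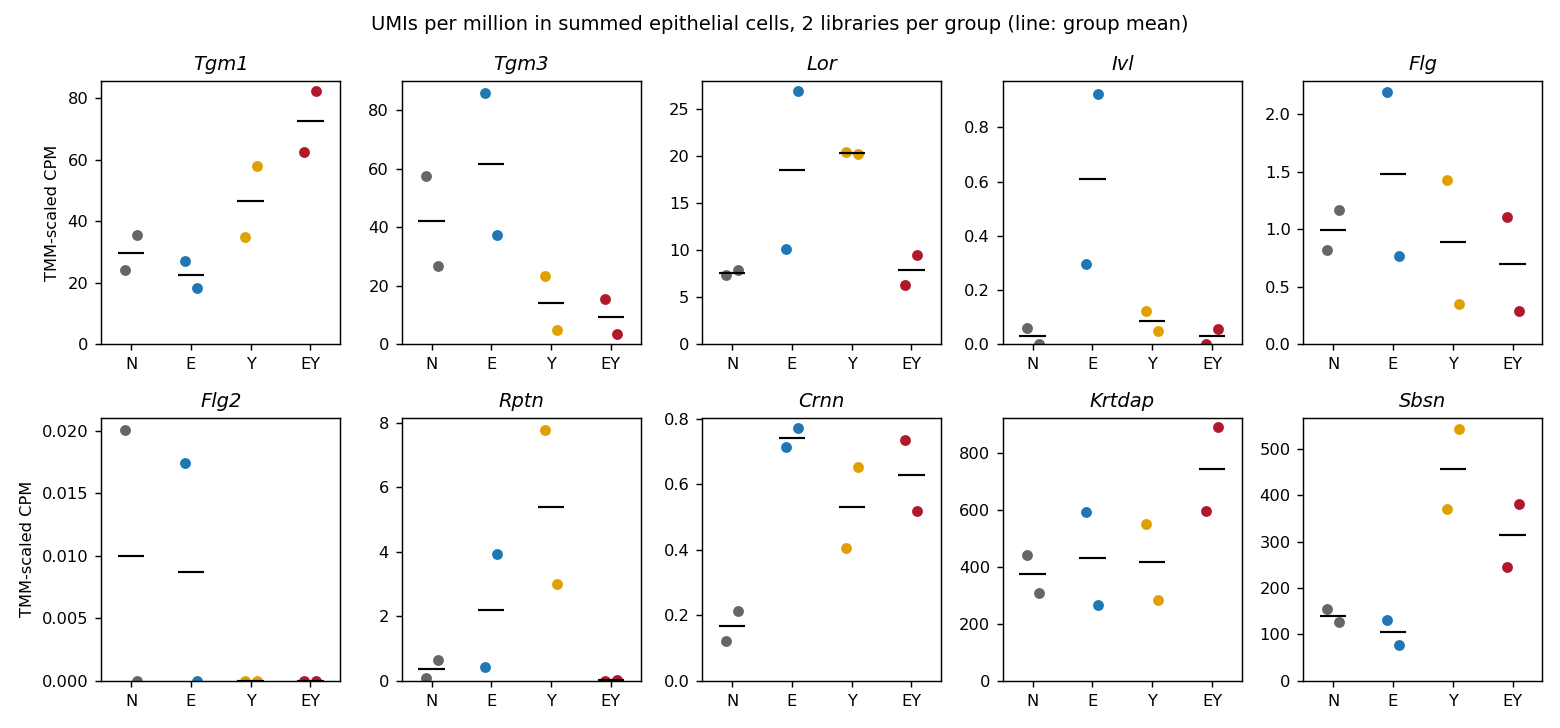
TMM-scaled CPM of each of the 10 genes in the summed epithelial cells, with 1 point per library, 2 libraries for every genotype, and a line at the group mean. All 4 Sbsn values in Y and EY (246 to 543 CPM) lie above the 4 in N and E (77.8 to 155 CPM), and all 4 Tgm3 values lie below (3.48 to 23.2 against 26.7 to 85.8 CPM).

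Activation of YAP was compared first, with Y and EY libraries against N and E libraries in a model with additive terms for YAP1S127A and E6-E7. Sbsn was higher with YAP1S127A, Tgm1 was higher and Tgm3 lower without passing the test, and Lor, Flg, Rptn, Crnn and Krtdap did not separate the libraries. In edgeR's quasi-likelihood test with Benjamini-Hochberg adjustment over all genes, 1 of 8 members tested was called (adjusted p under 0.05), against 4.62% of all genes tested (3.06% called higher and 1.56% lower). The median log2 fold change of the 8 was 0.57, against -0.02 over all genes.

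Sbsn measured 155 and 127 CPM in the N libraries, 131 and 77.8 in E, 371 and 543 in Y, and 246 and 381 in EY. No YAP1S127A library overlapped a library without it, which held in this direction for 8.88% of genes tested. The group means were 141 ± 19.8 in N, 104 ± 37.3 in E, 457 ± 122 in Y and 314 ± 95.6 CPM in EY (SD, n = 2). The log2 difference with YAP1S127A was 1.64 (SE 0.225, edgeR adjusted p = 0.0111), and it passed the test in each of 19 alternative analyses, with log2 differences of 1.14 to 1.87.

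Tgm1 measured 24.2 and 35.4 CPM in N, 26.9 and 18.3 in E, 34.8 and 58.0 in Y, and 62.5 and 82.3 in EY. The first Y library lay just below the second N library, and all other YAP1S127A libraries lay above every library without the allele. The log2 difference was 1.16 (SE 0.292, edgeR adjusted p = 0.0616), which missed the threshold. It passed without the second N library (1.38, adjusted p = 0.0487), without the first Y library (1.39, adjusted p = 0.0296), and in 7 of 11 analyses that changed the tool, filter or cells. The immune marker level was highest in the EY libraries, and when cells with any UMI of 7 further immune genes were left out (88 of 190 cells remained in the first EY library) the Tgm1 difference was 1.26 (SE 0.309, edgeR adjusted p = 0.0472).

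Tgm3 measured 57.6 and 26.7 CPM in N, 85.8 and 37.5 in E, 23.2 and 4.87 in Y, and 15.4 and 3.48 in EY. All YAP1S127A libraries lay below all others, which held in this direction for 9.72% of genes tested. Replicates differed widely within each group, by more than 2-fold in every one. The log2 difference was -2.20 (SE 0.679, edgeR adjusted p = 0.0913) and did not pass. It passed without the first Y library (-3.03, adjusted p = 0.0349), and in 4 of 11 other alternatives, among them the fit that kept cells above the upper limits (-3.33, adjusted p = 0.00588), in which 5987 genes were called.

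Krtdap did not separate by YAP1S127A alone. It measured 440 and 309 CPM in N, 593 and 267 in E, 549 and 282 in Y, and 594 and 891 in EY, so that both EY libraries were above every other library, the lower of them barely above the first E library. The log2 difference with YAP1S127A was 0.47 (SE 0.327, edgeR adjusted p = 0.366), and that of EY over N was 0.99 (SE 0.465, adjusted p = 0.183). The E replicates differed by more than the means of E and EY did.

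**Figure D2:**
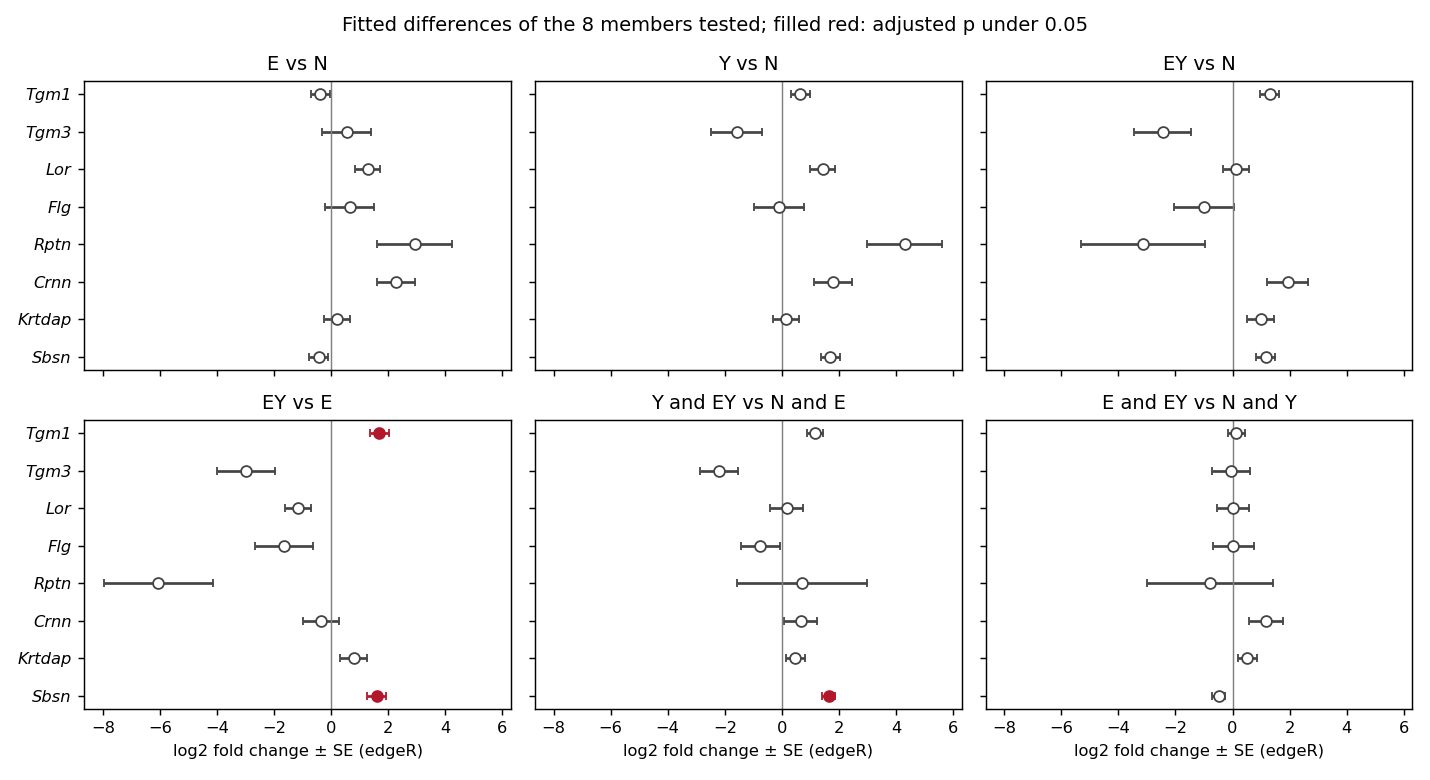
Log2 fold change ± SE from edgeR for the 8 members tested in 6 comparisons, with filled red points where the adjusted p was under 0.05. The calls are Tgm1 and Sbsn in EY against E and Sbsn in Y and EY against N and E.

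The 2 transgenes together were compared with E6-E7 alone, which asks what active YAP adds to E6-E7. Tgm1 and Sbsn were higher in EY than in E, and Tgm3, Lor and Rptn had lower values that did not pass. Here 2 of 8 members were called, both higher, against 7.19% of genes (3.62% higher and 3.57% lower). Tgm1 was higher by 1.68 on the log2 scale (SE 0.338, edgeR adjusted p = 0.0379) and Sbsn by 1.59 (SE 0.337, adjusted p = 0.0416). These calls rested on the full set of libraries. For Tgm1 the adjusted p rose to 0.0644 without the first N library, 0.0638 without the second, 0.122 and 0.236 without the first and second E library, 0.0502 without the second Y library and 0.165 without the second EY library. For Sbsn the call was lost without any single library other than the first EY library, with adjusted p between 0.0592 and 0.236 and log2 differences of 1.18 to 2.01. Tgm3 was at -2.99 (SE 1.01, adjusted p = 0.103).

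Against N, none of the 8 members was called in EY, where 9.19% of genes were called (4.72% higher and 4.47% lower). Tgm1 was at 1.30 (SE 0.336, edgeR adjusted p = 0.0560) and Sbsn at 1.16 (SE 0.334, adjusted p = 0.0697). Without the first EY library, which has the fewest cells, Tgm1 was at 1.49 and Sbsn at 1.46. Without the second EY library Tgm1 was at 1.03 and Sbsn at 0.758. Tgm3 was at -2.44 (SE 1.003, adjusted p = 0.141). Without cells that held other immune transcripts, the edgeR values were 1.54 (adjusted p = 0.0212) for Tgm1, 1.40 (adjusted p = 0.0246) for Sbsn and -3.74 (adjusted p = 0.0350) for Tgm3. That fit called 2487 of 13242 genes tested. Both EY libraries lay above both N libraries for Tgm1, Sbsn, Krtdap and Crnn, and below them for Tgm3 and Rptn, among 27.9% of genes that were higher and 30.8% that were lower without overlap. For Crnn and Rptn this rested on few UMIs. Crnn had 6 and 2 in N and 2 and 18 in EY, and Rptn 5 and 6 in N and 0 and 1 in EY.

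YAP1S127A alone and E6-E7 alone gave no called member against N. In Y against N, no gene passed edgeR's adjusted threshold (0% called), while 1364 genes had an unadjusted p under 0.05 and DESeq2 called 366, and the members nearest to the threshold were Sbsn (1.70, SE 0.338, edgeR adjusted p = 0.157), Rptn (4.31, SE 1.32, adjusted p = 0.340) and Lor (1.43, SE 0.438, adjusted p = 0.340). With cells above the upper limits kept, Sbsn, Lor, Rptn and Crnn were called higher (edgeR adjusted p = 0.0125 to 0.0271) in a fit that called 1241 genes. Both Y libraries lay below both N libraries for Tgm3, as 23.8% of genes did. In E against N, 5 genes or 0.0358% were called and no member. The log2 difference was -0.38 (SE 0.331) for Tgm1, -0.43 (SE 0.330) for Sbsn, 0.54 (SE 0.866) for Tgm3 and 0.20 (SE 0.460) for Krtdap, each with an edgeR adjusted p of 1. The additive E6-E7 term called 35 genes or 0.251% and no member, and no member separated E and EY from N and Y, as 2.2% of genes did upwards and 1.59% downwards. EY against Y also called no gene with edgeR (0%, 2568 genes at an unadjusted p under 0.05, 572 by DESeq2), and Tgm1 was at 0.65 (SE 0.330, adjusted p = 0.332) there. Tgm1 and Krtdap lay higher in both EY than in both Y libraries, as 21.3% of genes did.

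Lor, the main structural protein of the epidermal envelope, followed another order. It measured 7.32 and 7.86 CPM in N, 10.1 and 27.0 in E, 20.4 and 20.3 in Y, and 6.25 and 9.53 in EY. Both single-transgene groups lay above N without overlap, as 14.9% of genes did in E and 22.2% in Y. EY lay below both of them without overlap, as 30.7% of genes did against E and 24.7% against Y, and EY overlapped N. The interaction term was -2.58 (SE 0.628, edgeR unadjusted p = 0.00446, adjusted p = 0.539), in a comparison where no gene passed the adjusted threshold (0%), 1193 had an unadjusted p under 0.05 and DESeq2 called 51. DESeq2 called Lor in it (adjusted p = 0.0320). The Y against N difference of 1.43 depended on which cells were kept: it was 3.08 (edgeR adjusted p = 0.0125) with cells above the upper limits kept and -0.82 (adjusted p = 0.834) when cells with at least 200 genes were kept.

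In the E libraries and the first Y library, a single cell held a large part of the Lor UMIs. The richest single cell held 262 of 583 Lor UMIs (44.9%) in the first E library, 141 of 350 (40.3%) in the second and 195 of 502 (38.8%) in the first Y library, against 54 of 404 (13.4%) in the second Y library. It held 1.64% and 9.46% of the Lor UMIs in the N libraries and 17.6% and 3.93% in the EY libraries. Without the richest cell of each library, and before TMM scaling, Lor was at 7.15 and 7.18 CPM in N, 5.75 and 17.0 in E, 12.5 and 17.5 in Y, and 5.13 and 8.49 in EY. The E libraries then lay on either side of N and overlapped EY, and the Y libraries stayed above N and EY. Cells with at least 5 Lor UMIs numbered 1 in each N library, 2 in each E library, 9 and 6 in Y, and 0 and 7 in EY.

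Rptn, an S100-fused protein of cornifying papillae, was even more concentrated. It had 5 and 6 UMIs in the N libraries, 25 and 51 in E, 191 and 60 in Y, and 0 and 1 in EY. No library had more than 5 cells with a Rptn UMI, and 1 cell held 145 of the 191 UMIs (75.9%) in the first Y library and 40 of 60 (66.7%) in the second. Per UMI sequenced, Y held 226 times as much as EY, with an exact 95% counting interval of 40.3 to 8976 that rests on 1 UMI in EY and covers counting error only. The interaction (edgeR unadjusted p = 0.00275, adjusted p = 0.539) was called by DESeq2 (adjusted p = 0.000918).

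**Figure D3:**
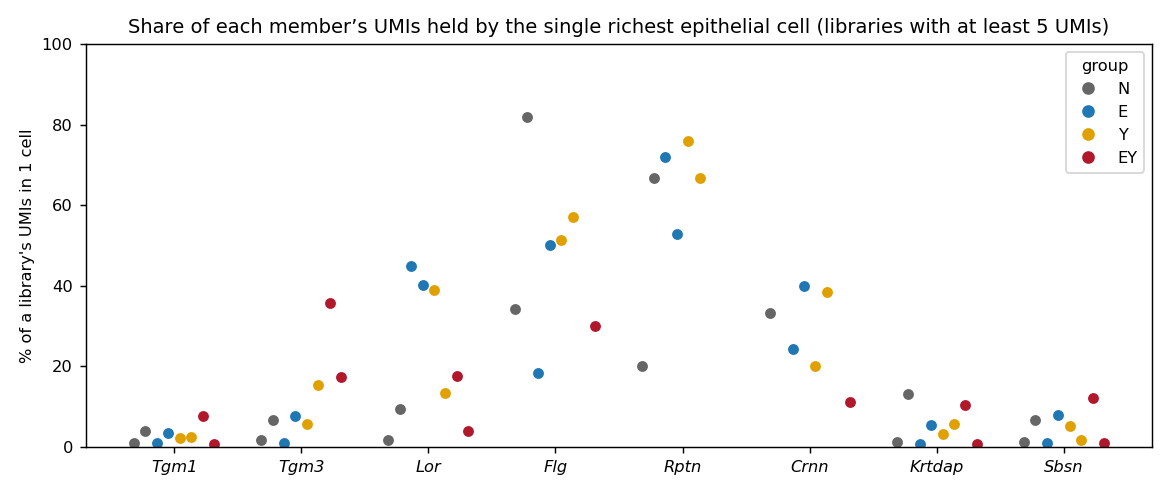
Percent of a library's UMIs of each gene that lay in the single epithelial cell with the most of them, with 1 point per library that had at least 5 UMIs of the gene, coloured by group. Tgm1 stays at or below 7.65%, while Rptn lies between 20% and 75.9% and Lor reaches 44.9%.

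The remaining scarce genes gave no called difference. Crnn had 6 and 2 UMIs in N, 41 and 10 in E, 10 and 13 in Y, and 2 and 18 in EY, or 0.120 and 0.213 CPM in N against 0.407 to 0.771 CPM in all 6 other libraries. Its log2 difference from N was 2.28 (SE 0.666, edgeR adjusted p = 0.952) in E and 1.80 (SE 0.672, adjusted p = 0.457) in Y. Ivl had 3 and 0 UMIs in N, 17 and 12 in E, 3 and 1 in Y, and 0 and 2 in EY, so that 29 of its 38 UMIs came from E libraries. Per UMI sequenced, with the libraries of a group pooled, E held 8.45 times as much Ivl as N. The counting interval of 2.62 to 43.4 covers counting error only, and 5 of the 12 UMIs of the second E library lay in 1 cell. Flg lay between 0.288 and 2.19 CPM with overlapping groups.

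Shares of cells with a UMI were compared at a fixed depth. Cells were thinned to 2000 UMIs each, and 5 cells below that depth in all libraries together, 1 or 2 per group, were left out. Ptprc-positive cells outside the epithelial gate, thinned alike, were taken as the background that free RNA can leave. Whether these cells make none of the members was not tested. Their median depth before thinning was 3116.5 to 10737 UMIs, against 12543.5 to 23498.5 in epithelial cells. Sbsn was found in 16.7% and 19.0% of epithelial cells in N, 15.1% and 13.3% in E, 31.4% and 36.0% in Y, and 25.4% and 33.5% in EY. The background for Sbsn was 1.01% to 5.07%. All YAP1S127A libraries were above all others, also at full depth, where the shares were 57.4% to 77.6% against 45.5% to 52.9%.

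Tgm3 was found in 6.68% and 7.19% of cells in N, 9.18% and 7.98% in E, 2.63% and 0.292% in Y, and 2.12% and 0.337% in EY, with a background of 0% to 1.47%. The second Y and second EY libraries were within the range of that background. Unthinned shares were 17.0% to 21.9% in N and E and 1.49% to 8.64% in Y and EY. Among cells with at least 5 Tgm3 UMIs, suprabasal keratins (Krt4 and Krt13 together at or above Krt5, Krt14 and Krt15 together) were dominant in 74.7% of 190 cells and 50% of 18 cells in the N libraries and in 63.4% of 322 and 55.2% of 29 cells in the E libraries. Among the other cells of these libraries they were dominant in 6.69% to 9.24%. In the Y libraries they were dominant in 62.2% of 37 and 66.7% of 6 such cells. The EY libraries held 2 and 7 such cells, of which 0% and 42.9% had suprabasal keratins dominant.

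Krtdap was found in 19.7% and 18.7% of cells in N, 26.3% and 17.2% in E, 22.6% and 14.1% in Y, and 40.2% and 47.5% in EY. The background was 3.38% to 12.9%, highest in the second EY library. The EY shares were above all 6 others, which was not tested across libraries, and in level Krtdap was not called. Unthinned, the EY shares were 64.2% and 78.9% and the others 33.1% to 49.98%. Tgm1 was found in 4.36% and 6.97% of cells in N, 4.57% and 4.96% in E, 6.24% and 9.44% in Y, and 8.99% and 12.5% in EY. Its background was 0.209% to 1.29% in N, E and Y libraries but 4.74% and 4.20% in the EY libraries. Whether Tgm1 in these Ptprc-positive EY cells came from free RNA was not tested, and more of their values are given below. Unthinned, 35.3% and 54.4% of EY cells and 19.6% to 41.5% of the others held Tgm1.

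**Figure D4:**
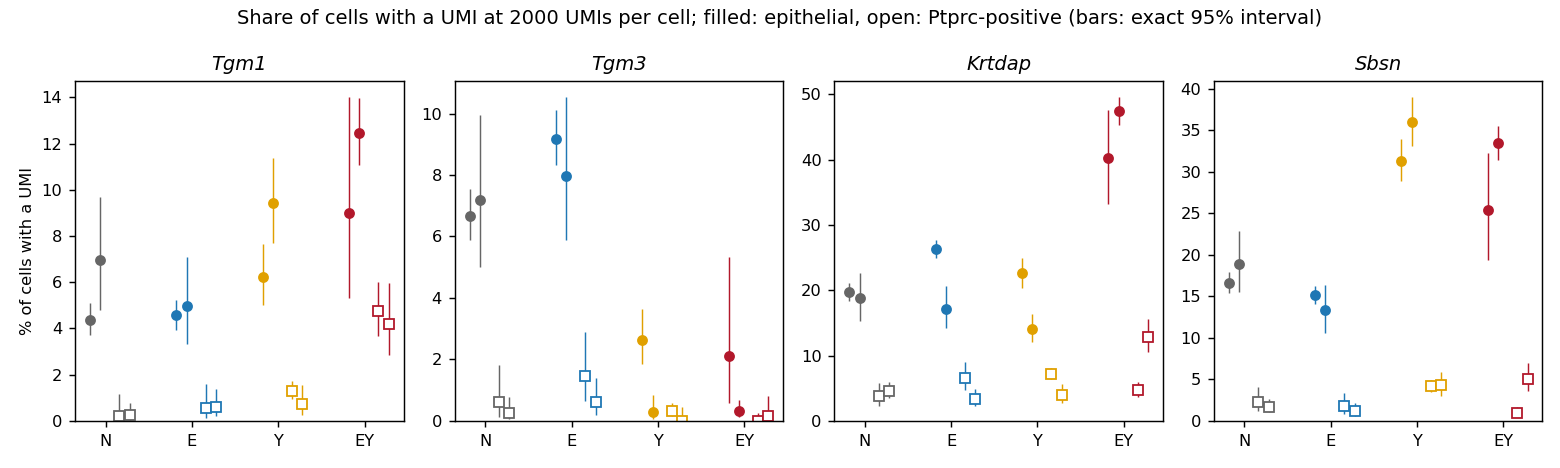
Percent of cells with at least 1 UMI of Tgm1, Tgm3, Krtdap and Sbsn after thinning to 2000 UMIs per cell, per library, with exact 95% intervals that cover counting error only. Filled circles are epithelial cells and open squares are Ptprc-positive cells outside the epithelial gate, and Krtdap stands at 40.2% and 47.5% in the EY libraries.

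Differences with YAP1S127A were also seen within keratin classes, cut by whether Krt4 and Krt13 together reached Krt5, Krt14 and Krt15 together. The classes are ranges of a keratin ratio, and 15 to 269 cells per library lay within 2-fold of the limit. Suprabasal keratins were dominant in 12.8% and 10.5% of epithelial cells in N, 11.1% and 9.93% in E, 10.7% and 13.7% in Y, and 8.95% and 4.58% in EY, and Tgm1, Tgm3, Krtdap and Sbsn were each higher in suprabasal than in basal cells of every library. Sbsn was at 97.4 and 104 CPM in basal cells of N and 280 and 449 CPM in those of Y, and at 469 and 488 against 1152 and 1028 CPM in suprabasal cells. The YAP1S127A difference in Sbsn was called in both classes, at 1.87 (SE 0.228, edgeR adjusted p = 0.00775) in basal and 1.14 (SE 0.155, adjusted p = 0.0112) in suprabasal cells.

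In basal cells Tgm1 was at 1.204 (SE 0.371, edgeR adjusted p = 0.0880) and Tgm3 at -1.70 (SE 0.668, adjusted p = 0.144). In suprabasal cells Tgm1 was at 1.07 (SE 0.157, edgeR adjusted p = 0.0144) and Tgm3 at -2.42 (SE 0.557, adjusted p = 0.0743). In suprabasal cells Tgm3 was at 256 and 174 CPM in N, 369 and 315 in E, 113 and 16.3 in Y, and 39.4 and 33.7 in EY. Krtdap in basal cells was at 202 and 237 CPM in N and 444 and 800 in EY, whereas in suprabasal cells it was at 1744 and 1427 in N and 2434 and 2795 in EY. Lor in suprabasal cells was at 5.07 and 14.6 CPM in N and 37.9 and 148 in E. It was at 108 and 79.0 CPM in Y and 33.7 and 26.4 in EY. The E values rested on 458 and 56 suprabasal cells and the EY values on 17 and 95. In each E library 2 epithelial cells held at least 5 Lor UMIs, of which 100% and 50% were suprabasal. The richest cell of the first E library, with 262 of its 583 Lor UMIs, was among these suprabasal cells.

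**Figure D5:**
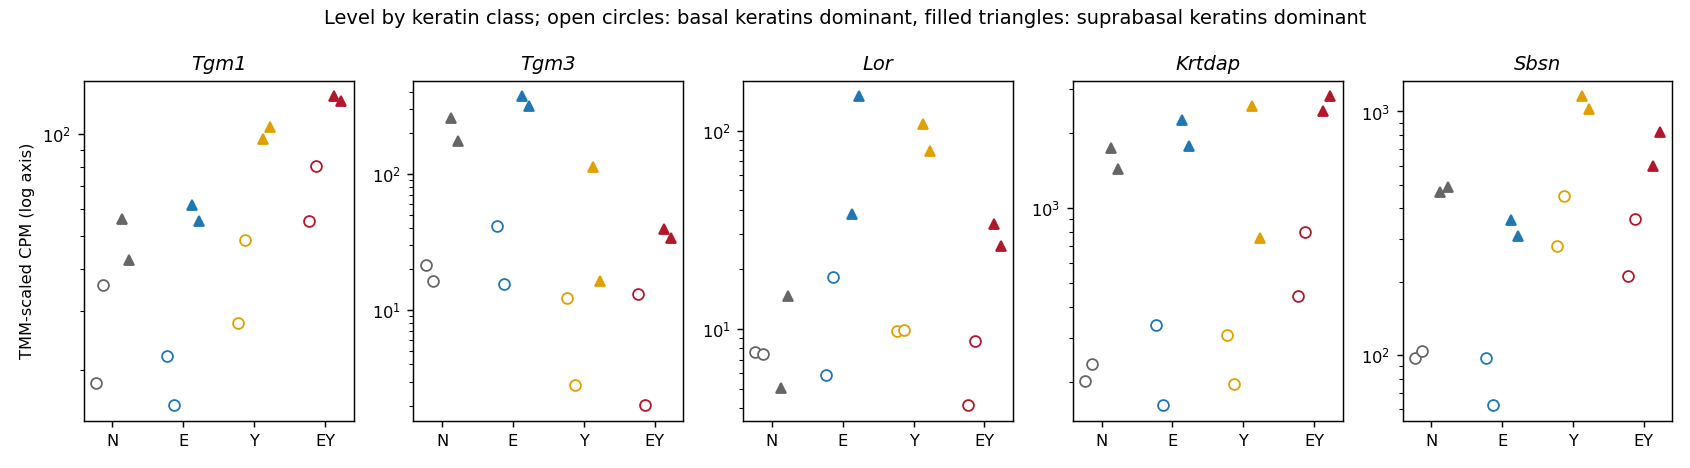
TMM-scaled CPM on a log axis of 5 genes in cells with basal keratins dominant (open circles) and suprabasal keratins dominant (filled triangles), with 1 symbol per library and class. Sbsn in basal cells of Y (280 and 449 CPM) and EY lies above that of N and E.

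Across cells within a library, the correlation of log-normalised levels was highest for Tgm1 with Sbsn (median Pearson r over 8 libraries 0.448, range 0.301 to 0.535) and for Tgm3 with Krtdap (median 0.443 over 7 libraries, range 0.129 to 0.597). The medians were 0.385 for Krtdap with Sbsn, 0.339 for Tgm3 with Sbsn, 0.284 for Tgm1 with Tgm3 and 0.245 for Tgm1 with Krtdap. Those of Lor with these 4 genes lay between 0.0689 (Tgm3) and 0.180 (Sbsn). Of 9940 other genes, those most like Tgm1 were Lypd3, Sult2b1 (a cholesterol sulfotransferase) and Cnfn (cornifelin, an envelope protein), with medians of 0.437, 0.410 and 0.409. Those most like Tgm3 were Gsta2, Aldh3b2 and Fabp5 (0.504, 0.460 and 0.445). Those most like Krtdap were Fabp5, its neighbour Dmkn and Sult2b1 (0.462, 0.435 and 0.419), those most like Sbsn were Dmkn, Lypd3 and Fam25c (0.523, 0.495 and 0.484), and those most like Lor were Wfdc5, Crct1 and Sprr1b (0.324, 0.284 and 0.240). These are correlations over cells of shared libraries and depth, given as a description.

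Other genes of the envelope were counted in lists that were chosen with earlier results of these data known. Over all genes, the YAP1S127A term called 4.62%, EY against E 7.19% and EY against N 9.19%, either way. Among 16 envelope partners and cross-linked proteins, all tested, the YAP1S127A term called 3 higher (Evpl, Ppl and Scel) and 1 lower (Csta1), with a median log2 difference of 0.62. Ppl, the periplakin that anchors the envelope to keratin filaments, rose by 2.18 (SE 0.271, edgeR adjusted p = 0.00805), from 12.3 to 27.5 CPM in N and E to 56.3 to 141 CPM in Y and EY. Csta1, a cystatin A gene, fell by 2.15 (SE 0.371, adjusted p = 0.0230). In EY against E, Anxa1, Ppl and S100a10 were called higher, and Ppl rose by 2.25 (SE 0.407, adjusted p = 0.0349). In EY against N, S100a10 and S100a11 were called higher and Csta1 lower, S100a10 by 0.99 (SE 0.220, adjusted p = 0.0418) and Csta1 by -2.40 (SE 0.570, adjusted p = 0.0467). Of the 3 other S100-fused genes 1 was tested and not called.

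Of 39 small proline-rich and late envelope genes, substrates of the same enzymes, 38 were in the files and 19 were tested. The YAP1S127A term called 9 higher and none lower (edgeR, median 2.85), EY against N 9 higher (median 6.50, or 5.30 with the 5 genes at 0 in a group set at their bound), and EY against E 6 higher (median 2.85). Over all genes, the YAP1S127A term called 3.06% higher, EY against N 4.72% and EY against E 3.62%. The called gene with the largest fitted difference was Sprr2e in each of these, at 0 in all N and E libraries and at 0.813, 0.603, 0.368 and 5.44 CPM in the Y and EY libraries (adjusted p = 0.0390 for the YAP1S127A term, 0.0469 for EY against N and 0.0486 for EY against E). Copies of Sprr2 genes are nearly identical, so the split of reads among them is uncertain. Of 13 processing enzymes and inhibitors tested, the YAP1S127A term called Spink5, an inhibitor of kallikrein proteases, higher by 1.96 (SE 0.374, edgeR adjusted p = 0.0299), and EY against E called Ctsl higher by 1.04 (SE 0.209, adjusted p = 0.0376).

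Among regulators of late differentiation, Barx2, Maf and Notch1 were called lower in EY against both N and E (edgeR). Over all genes, EY against N called 4.47% lower, EY against E 3.57% and the YAP1S127A term 1.56%. MAF is a transcription factor that promotes terminal differentiation of keratinocytes, and Maf was at -2.80 (SE 0.610, edgeR adjusted p = 0.0405) in EY against N and at -3.12 (SE 0.615, adjusted p = 0.0370) against E. It measured 65.9 to 94.3 CPM in N and E, 59.8 and 42.1 CPM in Y, and 18.8 and 4.38 CPM in EY. Of 9 tongue suprabasal and papilla keratins tested, the YAP1S127A term called Krt76 lower (adjusted p = 0.00713), from 15.1 and 14.6 CPM in N and 2.16 and 3.39 in E to at most 0.402 CPM in Y and EY. EY against N called Krt1, Krt24 and Krt76 lower (Krt76 adjusted p = 0.0197), and EY against E called these with Krt36 and Krt84 (Krt84 adjusted p = 0.0311, 16.7 and 8.94 CPM in E, 0.368 and 0.0864 in EY). Of 3 stress keratins, Krt17 was higher, by 1.64 (SE 0.372, adjusted p = 0.0493) with YAP1S127A, 2.53 (SE 0.329, adjusted p = 0.0212) in EY against N and 2.45 (SE 0.328, adjusted p = 0.0280) against E. No member of any of these lists was called in E against N, Y against N, EY against Y, the interaction or the E6-E7 term.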

How the data were processed

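Counts were deposited by the authors as 1 matrix per library of unscaled UMI counts per gene and barcode, made with Cell Ranger on mm10 per the labels. The labels name version 2 of the 3′ kit, the methods another version. The study's limits on cells were applied (1000 to 5500 genes, no more than 30000 UMIs, mitochondrial share up to 7%), and doublets were not called. UMIs of gate-positive cells were summed per library (2 per group, so p-values measure the spread between these samples) and tested with edgeR 4.0.16 (quasi-likelihood, filterByExpr, TMM, Benjamini-Hochberg, adjusted p under 0.05) in R 4.3.3. All 8 libraries shared 1 dispersion fit with group means, and an additive fit gave the YAP1S127A and E6-E7 terms. DESeq2 1.42.0 was an alternative. SEs were derived from the F statistic. The fits were tested on simulated data with known changes. Between 2 groups they recovered 2% to 4% of 2-fold and 37% to 59% of 4-fold changes. For the interaction they recovered 0% and 17%, for the YAP1S127A term 39% and 69%, and for the E6-E7 term 26% and 76%. A member that was not called can thus still differ. Share intervals are exact Clopper-Pearson (95%).

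The members and lists were chosen with earlier results of these data known. The text names all 10 members, the called gene with the largest rise and the largest fall of each list and comparison (other called genes are listed by symbol only), and the 3 genes with the highest median correlation to each member found in at least 5% of cells of at least 4 libraries. The alternative without gland-marker cells (gland or duct markers at least 0.5% of UMIs) and the levels without the richest cell were added after the data were seen. Protein sequences were not used here. Some results are not reported here.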

Additional observations from a re-analysis of the deposited data

Results flagged for a closer look

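Tgm1 UMIs appeared in cells outside the comparisons above. Among Ptprc-positive cells that did not pass the epithelial gate, thinned to 2000 UMIs, 4.74% in the first EY library and 4.20% in the second held Tgm1, above 0.209% and 0.266% in the N libraries. At full depth Tgm1 was at 40.8 and 26.9 CPM in these cells in EY and at 0.403 and 1.72 CPM in N. The ratio of Tgm1 to Sbsn CPM in these cells was 5.49 and 0.859 in the EY libraries, against 0.254 and 0.216 in their epithelial cells. In the Y libraries it was 0.383 and 0.232, against 0.0938 and 0.107 in their epithelial cells. In the N and E libraries it was 0.0526 to 0.293, against 0.156 to 0.279 in their epithelial cells. In the first EY library 23.8% of 1053 Lyz2-positive cells (exact interval 21.3% to 26.5%, median 11904 UMIs) and 6.19% of 339 Lyz2-negative cells (3.88% to 9.31%, median 6614 UMIs) held Tgm1, and 2.98% of 235 Cd3e-positive cells did. In the second EY library 10.8% of 445 Lyz2-positive, 4.07% of 246 Lyz2-negative and 3.29% of 152 Cd3e-positive cells did. There 8.48% of 637 S100a8-positive and 7.41% of 54 S100a8-negative cells held Tgm1, while all 1392 such cells of the first EY library were S100a8-positive. The Lyz2 split was also seen in both Y libraries (8.19% against 2.10%, and 3.57% against 1.29%). It was seen as well in the second N (4.29% against 0.590%) and second E library (2.53% against 0.945%). The split ran the other way in the first N library (0% of 75 against 0.239% of 419 cells). It also did so in the first E library (0.488% of 205 against 1.18% of 340 cells). The part of depth and of free RNA in this was not tested beyond these values.

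For Lor and Rptn, libraries with YAP1S127A moved in opposite directions without and with E6-E7: both Y libraries lay above both N libraries, and both EY libraries lay below both E libraries. Lor also moved in opposite directions with E6-E7 without and with YAP1S127A. Without the richest cell of each library, and before TMM scaling, Lor in E (5.75 and 17.0 CPM) overlapped both N (7.15 and 7.18 CPM) and EY (5.13 and 8.49 CPM). The fitted interaction was -2.58 for Lor and -10.36 for Rptn on the log2 scale, both with an edgeR adjusted p of 0.539, and the fitted size for Rptn depends on the prior count because the EY libraries held 0 and 1 UMIs.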

How the results depend on the processing

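The members called moved with the analysis, as did calls over all genes. Leaving out 1 library at a time gave 0 to 2 members called in EY against N (0 in the reported fit), 0 to 2 in EY against E (2), 1 to 3 for the YAP1S127A term (1) and 0 in every other comparison. In the order Y against N, EY against N, EY against Y, EY against E, interaction and YAP1S127A term, the reported 0, 0, 0, 2, 0 and 1 became 2, 2, 1, 3, 2 and 3 with DESeq2, 3, 3, 2, 5, 2 and 3 without the filter on low counts, and 4, 4, 2, 4, 0 and 4 without upper limits. Thinned cells gave 1 in Y against N, 3 in EY against N and 3 for the YAP1S127A term. The keratin gate gave 2 and 2, cells without immune transcripts 3 and 2, and suprabasal cells 1 and 2 in EY against N and the YAP1S127A term. EY against N gave 1 without gland-marker cells and 1 in basal cells, and EY against E gave 0 in suprabasal cells. E against N and the E6-E7 term gave 0 throughout. The causes were not tested.

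Lor with YAP1S127A (0.17 on the log2 scale) had no stable sign. It was -0.27 and -0.18 without the first and second N library, -0.02 and -0.01 without the first and second Y library and 0.70 without the second E library, -0.029 without immune transcripts, -1.16 with cells of at least 200 genes, -0.15 in thinned cells, -0.0095 without gland-marker cells and -0.18 in basal cells. With cells of at least 200 genes it was also -0.82 in Y against N and -0.46 in E against N. No other member and comparison followed this way reversed. The share of epithelial cells with a UMI in Y and EY minus N and E moved, for Tgm1, from 4.07 to 15.6 points unthinned, for Tgm3, from -6.41 to -3.22 at 1000 UMIs, -14.0 unthinned and -4.92 with the keratin gate, and for Sbsn, from 15.5 to 11.3 at 1000 UMIs and 21.9 unthinned.

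Over all genes, leaving out 1 library gave 0 to 17 calls in E against N (5 reported), 0 to 30 in Y against N (0), 4 to 3644 in EY against N (1282), 0 to 978 in EY against Y (0), 0 to 3142 in EY against E (1003), 0 to 2 for the interaction (0), 116 to 927 for the YAP1S127A term (644) and 0 to 25 for the E6-E7 term (35). The other alternatives gave 0 to 131, 0 to 1241, 128 to 5790, 0 to 638, 10 to 5408, 0 to 90, 145 to 5987 and 2 to 217, the 1241, 5790, 5408 and 5987 without upper limits. A group left with 1 library was assumed to vary like the others. No paired analysis was possible because the animal numbers in the labels are not shared between groups.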
